A study of Homo sapiens
Mus musculus and Homo sapiens with 12 samples.

Results

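The genes described here are 8 human genes of the TGF beta pathway. TGFB1, TGFB2 and TGFB3 encode the secreted ligands. LTBP2 encodes a matrix protein of the latent TGF beta binding protein family, and TGFBR2 encodes the receptor that binds the ligand. TGFBI, CCN1 and CCN2 are genes that TGF beta is known to induce in fibroblasts. The 8 genes were set by name, with earlier results of these data known, out of 18775 genes with a human RefSeq coding accession, and the level of each is the sum over its NM_ transcripts.

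TGF beta ligands leave the cell bound to their own propeptide and are stored in the matrix in a latent form. Released ligand binds TGFBR2, which recruits and phosphorylates the type I receptor TGFBR1, and the activated complex phosphorylates SMAD proteins that then act in the nucleus with SMAD4. In fibroblasts the pathway is known for raising matrix and contractile genes. CCN1 and CCN2 are secreted matrix-associated proteins, also known as CYR61 and CTGF, whose genes respond to TGF beta and to the YAP and TEAD regulators.

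Polyadenylated RNA was sequenced from 12 samples of the human fibroblast line MRC5, alone or together with D3 mouse embryonic stem cells. Heterokaryons are short-lived fusion products of a mouse stem cell and a human fibroblast whose nuclei stay separate. They were sorted by flow cytometry (at least 30000 per sample) and taken on day 1, day 2 and day 3, with 2 samples on each day. The 2 co-culture samples hold RNA of both cell types grown side by side without fusion and harvested in a joint preparation, 1 homokaryon sample holds fibroblasts fused to fibroblasts, and 3 samples hold unfused fibroblasts. The labels name no drug or genetic change in any group, and give no day for the co-culture, homokaryon and unfused samples. They do not say that replicates came from separate fusions or cultures, so the p-values below measure only the spread between these samples, which may be technical. All values are of human transcripts. In such bulk samples, fewer cells of a type and less RNA per cell cannot be told apart.

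Human values could be read from 11 of the 12 deposited tables, since none of the 8070 entries of unfused fibroblast replicate 3 matched a human accession. All 8 genes were covered in 10 libraries. The table of unfused fibroblast replicate 1 covered only TGFB1, TGFBI and LTBP2 in full, so the other 5 genes have 1 unfused fibroblast value, from replicate 2. Of the 17527 entries of that replicate 1 table, 12191 were outside the human RefSeq accessions, more than in any of the other 10 tables read, and its values are used here as the second unfused fibroblast replicate. Without it, TGFBI on day 3 was still called higher than the unfused fibroblasts (1.67, adjusted p = 0.025), TGFBI on day 2 was not (0.94, adjusted p = 0.119) and LTBP2 on day 1 was not (-0.93, adjusted p = 0.182). The deposited values have the form of RPKM (reads scaled to transcript length and library depth). Their smallest steps put the relative depth between 1 (day 1 replicate 2) and 8.01 (unfused fibroblast replicate 1), with co-cultures at 1.18 and 1.23 and heterokaryons at 1 to 2.6. Replicates differed beyond counting error in every group, by a chi-square per gene of 101 over 1411 genes in the day 3 pair and 13 over 1448 genes in the co-culture pair. The summed level of the 6 covered of 11 fibroblast markers was 6234 to 6258 RPKM in co-culture, 4268 to 7052 in the heterokaryons, 14920 in the homokaryon and 7269 in unfused fibroblast replicate 2. Among the fibroblast markers tested, PDGFRB was called lower than in co-culture on days 1 and 2, and COL3A1 on day 2. PDGFRB was at 73.9 to 88.2 RPKM in co-culture, 29 to 34.7 on day 1 and 32.3 to 37.1 on day 2. COL3A1 was at 199 to 239 RPKM in co-culture and 73.4 to 111 on day 2. None was called higher. Of 8 pluripotency markers only SOX2 was covered, at 0 in all 10 libraries. The sum of the 4 endothelial markers stayed at or under 2.22 RPKM and that of 2 of 4 immune markers at or under 1.42. Epithelial markers (3 of 5 covered) summed to 5.94 to 18.7 RPKM in co-culture and 88.6 to 585 in the heterokaryons. KRT19, called higher on each day, was at 5.94 to 6.29 RPKM in co-culture and 58.4 to 329 in the heterokaryons, and EPCAM was at 0 in both co-cultures and at most 3.33 in the heterokaryons. Smooth muscle markers (4 of 5 covered) summed to 1094 to 1122 in co-culture, 509 to 720 on days 1 and 2 and 1217 to 2435 on day 3, and to 2570 in unfused fibroblast replicate 2. TAGLN, at 977 to 985 RPKM in co-culture, made up most of this sum. DES, called higher than in co-culture on each day, was at 0 to 0.972 RPKM in co-culture and 17.5 to 55.8 in the heterokaryons. ACTA2 was called higher on day 3, and none of the smooth muscle markers tested was called lower. The levels of TAGLN and CNN1 were below both co-cultures on days 1 and 2. TAGLN was at 350 to 574 RPKM on day 1, 431 to 499 on day 2 and 929 to 1963 on day 3. CNN1 was at 43.6 to 70.3 RPKM in co-culture, 12.5 to 17.9 on day 1, 11.4 to 23.4 on day 2 and 29.7 to 62.4 on day 3. The part of all these cell type markers in the results below was not tested.

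Against co-culture, CCN1 was higher in the heterokaryons on all 3 days, LTBP2 was lower on days 1 and 2, TGFBR2 was lower on day 1, TGFB1 was lower on day 2 and TGFBI was higher on day 3. These calls are adjusted p-values under 0.05 from limma, a linear model with a variance shared across genes, adjusted by Benjamini-Hochberg over all genes tested. On day 1, 3 of 8 genes were called, where 11% of 3563 genes were called. On day 2, 3 of 8 were called, where 10.6% of 2430 genes were, and on day 3, 2 of 8, where 3.5% of 2999 genes were. The 3 comparisons share the co-culture samples. All log2 differences are on the log2(RPKM + 1) scale, which understates the change of genes with low values.

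**Figure D1:**
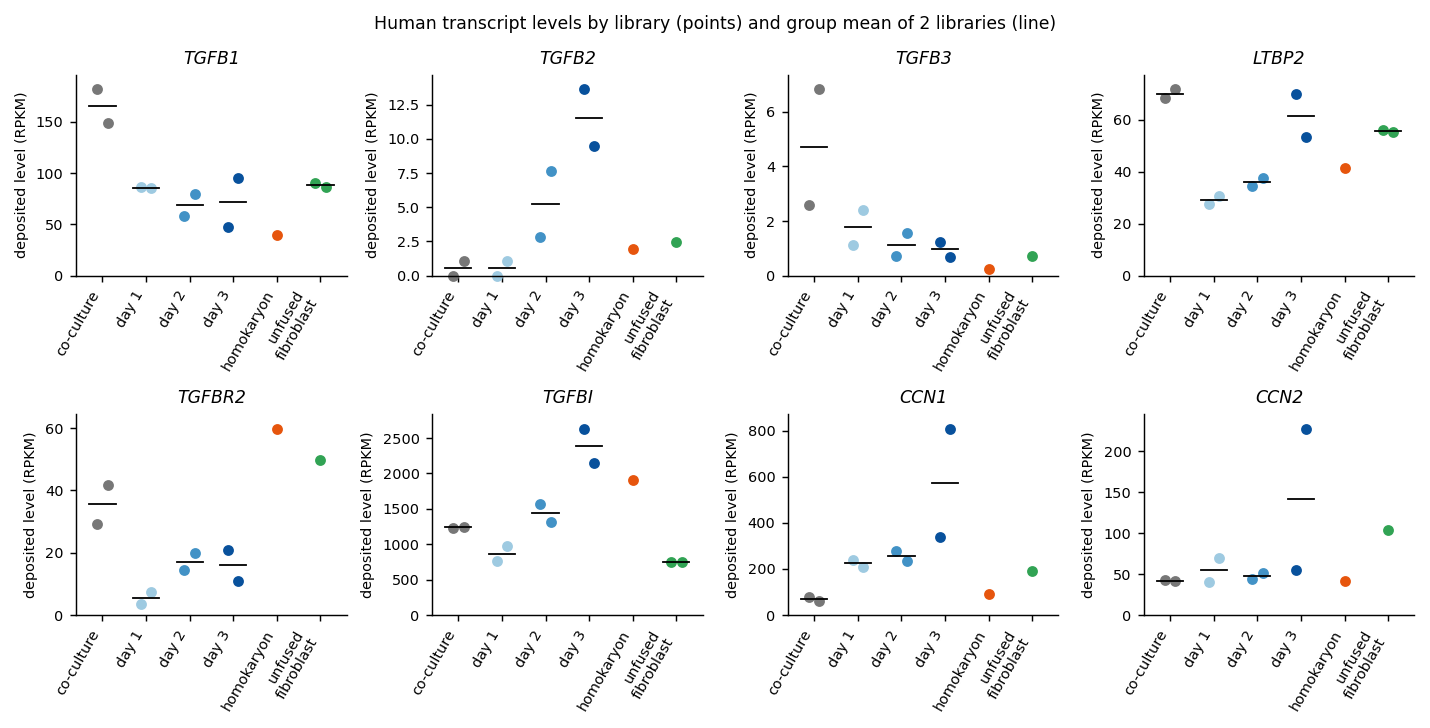
Human transcript level (deposited value, RPKM, linear axis from 0) of each gene in every library that covers it, with points for libraries and a line at the mean of 2 libraries. CCN1 lies between 209.8 and 808 RPKM in the 6 heterokaryon libraries and at 62.52 and 78.89 in co-culture, and the 2 day 3 libraries lie far apart for CCN1 and CCN2.

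**Figure D2:**
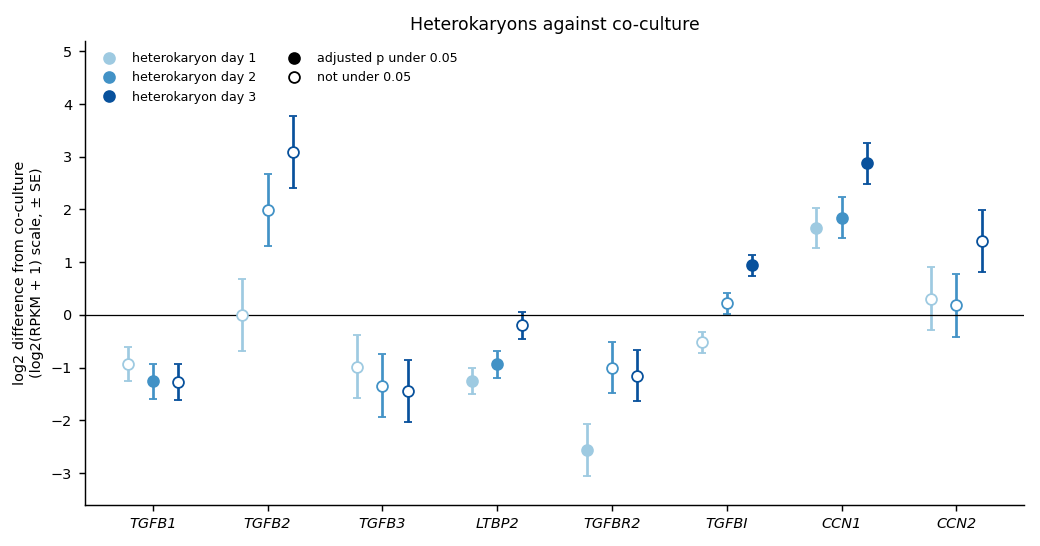
Difference of each heterokaryon day from co-culture (log2(RPKM + 1) scale, limma estimate with its standard error), filled where the adjusted p is under 0.05. The CCN1 estimates run from 1.65 to 2.88, and TGFBR2 on day 1 has the lowest estimate, -2.56.

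TGFB1, the main ligand of this set by level, was at 181.4 and 149 RPKM in co-culture. Heterokaryons had 86.28 and 85.15 on day 1, 58.28 and 79.49 on day 2, and 47.72 and 94.9 on day 3. All 6 heterokaryon libraries were below both co-cultures. The unfused fibroblasts had 86.5 and 90.55 RPKM, inside the heterokaryon range, and the homokaryon had the lowest level of the 11 libraries, 39.39. The difference from co-culture was -0.93 ± 0.33 (log2, SE, n = 2 and 2; adjusted p = 0.107) on day 1, -1.26 ± 0.33 (adjusted p = 0.0458) on day 2 and -1.27 ± 0.34 (adjusted p = 0.0741) on day 3, so only day 2 was called. That call was lost when any of the 4 libraries was left out (adjusted p = 0.131 to 0.225), and day 3 was called without its replicate 2 (-1.76, adjusted p = 0.029). The day 2 call held in only 1 of 7 other settings. It was lost under upper quartile scaling (adjusted p = 0.0612) and under quantile normalization (adjusted p = 0.0664). Co-culture against unfused fibroblasts gave 0.89 for TGFB1 (adjusted p = 0.339). None of the 3 genes tested there was called, where 0.836% of 957 genes were, with 112 genes at an unadjusted p under 0.05. In order of level, co-culture stood first, followed by the unfused fibroblasts, day 1 and day 2, each without overlap with the next, and the homokaryon came last. The day 3 pair spanned the unfused fibroblasts, day 1 and the day 2 libraries.

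TGFB2, the ligand best known from development, was at 0 or 1.107 RPKM in co-culture and on day 1 and detected in every library from day 2 on. Its levels were 0 and 1.107 RPKM in co-culture, 0 and 1.107 on day 1, 2.827 and 7.669 on day 2, and 13.61 and 9.443 on day 3. Both day 2 libraries were above all 4 co-culture and day 1 libraries, and both day 3 libraries were above both day 2 libraries. The homokaryon had 1.968 RPKM and unfused fibroblast replicate 2 had 2.498. The difference from co-culture was 1.99 ± 0.68 on day 2 (adjusted p = 0.108) and 3.09 ± 0.69 on day 3 (adjusted p = 0.0535). Neither was called, although day 3 fell under 0.05 in 2 of 7 other settings (lowest adjusted p = 0.0398). The counts behind these values are small. With the smallest step of a library taken as 1 read, TGFB2 had about 0 and 13 reads in co-culture, 0 and 11 on day 1, 51 and 124 on day 2 and 349 and 192 on day 3, and these could all be off by a whole multiple. The deposited split between its transcripts differed between replicates. On day 3 all of the TGFB2 value was on NM_001135599 in replicate 1 and on NM_003238 in replicate 2, so only the sum of both is used here.

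TGFB3, the third ligand, was low in every library. It was at 2.591 and 6.819 RPKM in co-culture, 1.121 and 2.42 on day 1, 0.7078 and 1.562 on day 2, and 1.24 and 0.6922 on day 3. Both co-cultures were above the 6 heterokaryon libraries, and the 3 days overlapped each other. The homokaryon had 0.2433 RPKM and unfused fibroblast replicate 2 had 0.7035. No day was called, with differences of -0.98 (adjusted p = 0.346), -1.34 (adjusted p = 0.2) and -1.44 (adjusted p = 0.245). These values rest on 7 to 52 read steps per library, 19 and 52 of them in co-culture and 8 to 20 in the heterokaryons.

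Within a library, the makeup of the ligand transcripts can be compared per length without scaling between libraries. TGFB1 made up 76.3% to 98.7% of the summed RPKM of the 3 ligands in the 10 libraries that cover all of them. The share of TGFB2 was 0% and 0.706% in co-culture, 0% and 1.25% on day 1, 4.57% and 8.64% on day 2, and 21.8% and 8.99% on day 3. It was 4.73% in the homokaryon and 2.66% in unfused fibroblast replicate 2. The day 2 and day 3 shares were all above those of co-culture and day 1. The summed ligand level was 184 and 157 RPKM in co-culture and 61.8 to 105 in the heterokaryons.

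**Figure D3:**
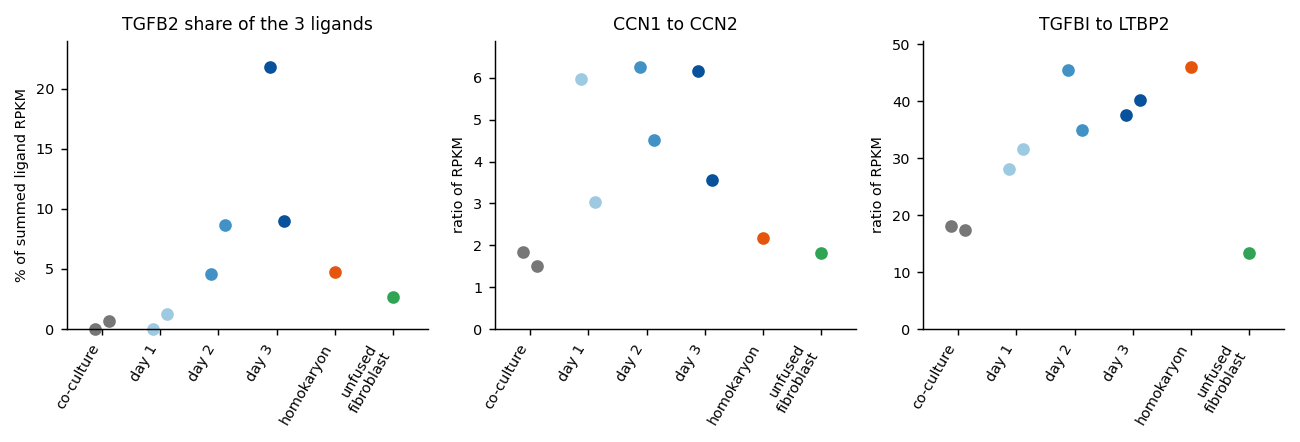
Ratios taken within each library that covers all 8 genes: the TGFB2 share of the summed RPKM of the 3 ligands (%), the CCN1 to CCN2 ratio and the TGFBI to LTBP2 ratio (linear axes from 0, points are libraries). The TGFB2 share is at most 1.25% in co-culture and on day 1 and at least 4.57% on days 2 and 3, and the CCN1 to CCN2 ratio is at most 1.84 in co-culture and at least 3.03 in the heterokaryons.

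LTBP2, a fibrillin-like matrix protein, was lowest on day 1. Its level was 68.59 and 71.73 RPKM in co-culture, 27.43 and 30.63 on day 1, 34.56 and 37.65 on day 2, and 69.87 and 53.45 on day 3. Day 1, day 2 and day 3 did not overlap each other, whereas day 3 overlapped co-culture. LTBP2 fell by 1.25 on the log2 scale on day 1 (SE 0.25, adjusted p = 0.0184) and by 0.94 on day 2 (SE 0.25, adjusted p = 0.0469). On day 3 the difference was -0.20 (adjusted p = 0.761), and it turned to 0.02 under upper quartile scaling. The day 1 call held in all 7 other settings and was lost without either co-culture library (highest adjusted p = 0.14). The day 2 call was lost without any of the 4 libraries (adjusted p = 0.168 to 0.223). It held in 3 of 7 other settings (highest adjusted p = 0.0869). The difference between day 3 and day 1, 1.05, was not called (adjusted p = 0.0829).

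The unfused fibroblasts had 55.42 and 55.99 RPKM of LTBP2. Day 1 was lower by 0.92 on the log2 scale (adjusted p = 0.0345), where 15.9% of 957 genes were called, and this call was lost without any of the 4 libraries (adjusted p = 0.0507 to 0.227). Days 2 and 3 differed by -0.61 (adjusted p = 0.145) and 0.13 (adjusted p = 0.791), and the latter was -0.02 under upper quartile scaling. The homokaryon, with 41.42 RPKM, lay between the day 2 and day 3 libraries.

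TGFBR2, the ligand-binding receptor, had its lowest levels on day 1. It was at 29.23 and 41.82 RPKM in co-culture, 3.407 and 7.458 on day 1, 14.52 and 19.78 on day 2, and 21.03 and 10.87 on day 3. The day 1 libraries were below all others, and days 2 and 3 overlapped each other below both co-cultures. The homokaryon had 59.81 RPKM and unfused fibroblast replicate 2 had 49.92, the 2 highest levels. TGFBR2 fell by 2.56 on the log2 scale on day 1 (SE 0.49, adjusted p = 0.0184). On days 2 and 3 the differences were -1.0 (adjusted p = 0.242) and -1.15 (adjusted p = 0.264), not called. The day 1 call held without day 1 replicate 2 (adjusted p = 0.0215) and was lost without each of the other 3 libraries in turn (up to 0.146). It held in 5 of 7 other settings (highest adjusted p = 0.0872). The differences from day 1, 1.56 on day 2 (adjusted p = 0.144) and 1.41 on day 3 (adjusted p = 0.18), were not called. About 57 and 67 read steps lie behind the day 1 levels and 311 and 463 behind those of co-culture.

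For the 1 TGFBR2 transcript that both unfused fibroblast libraries cover, days 1, 2 and 3 gave log2 differences of -2.44, -2.66 and -1.04 from them. No day was called (limma, adjusted p = 0.178, 0.19 and 0.649). The comparison of the summed TGFBR2 level with unfused fibroblasts rests on replicate 2 alone. In a fit that assumes this library to vary like the others, day 1 was lower (log2 difference -3.06, SE 0.61, adjusted p = 0.0358), where 4.06% of 2638 genes were called. Days 2 and 3 gave -1.50 (adjusted p = 0.238) and -1.65 (adjusted p = 0.271), and co-culture gave -0.50 (adjusted p = 1). These fits called 3.17% of 2426 genes on day 2, 1.59% of 2638 on day 3 and 0.455% of 2638 for co-culture. None of TGFB2, TGFB3, CCN1 and CCN2 was called in any of the 4, and CCN1 on day 3 stood at 1.46 (adjusted p = 0.208). The ratio of TGFB1 to TGFBR2 within a library was 25.3 and 11.4 on day 1, 6.21 and 3.56 in co-culture, and 2.27 to 8.73 on days 2 and 3. In the homokaryon it was 0.659, and in unfused fibroblast replicate 2 it was 1.81.

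TGFBI, a secreted matrix protein named for its induction by TGF beta, had the highest level of the 8 genes in each library. It was at 1236 and 1241 RPKM in co-culture, 766.8 and 969.1 on day 1, 1573 and 1319 on day 2, and 2631 and 2151 on day 3. The 3 days did not overlap, with day 1 below co-culture and days 2 and 3 above it. TGFBI was higher on day 3 than in co-culture by 0.94 (SE 0.20, adjusted p = 0.0413), a 1.92-fold difference. The day 1 and day 2 differences were -0.52 (adjusted p = 0.127) and 0.22 (adjusted p = 0.534), and under quantile normalization day 1 was called lower (-0.87, adjusted p = 0.0322). The day 3 call held in 2 of 7 other settings and, of the 4 fits that leave out a library, only without day 3 replicate 2 (adjusted p = 0.0448, otherwise up to 0.245).

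The same gene was higher on day 3 than on day 1 by 1.46 (SE 0.20, adjusted p = 0.0359), a 2.76-fold difference. It was the 1 member called between heterokaryon days, where 1.27% of 2999 genes were called between days 1 and 3. The call was lost without day 1 replicate 1 (adjusted p = 0.066) and held without each of the other 3 libraries. Between days 1 and 2, 0.329% of 2430 genes were called and TGFBI stood at 0.74 (adjusted p = 0.102). Between days 2 and 3 limma called 0% of 2430 genes, also under both other scalings, with 196 genes at an unadjusted p under 0.05, and TGFBI stood at 0.72 (adjusted p = 0.337).

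Against the unfused fibroblasts, at 742.1 and 747.7 RPKM, TGFBI was higher on day 3 by 1.67 (SE 0.19, adjusted p = 0.00158), where 7.21% of 957 genes were called. All 7 other settings and all 4 fits without a library kept this call, with adjusted p-values from 0.00243 to 0.0328, and the difference was 1.06 under quantile normalization. Day 2 was higher by 0.95 (adjusted p = 0.0147), where 12.9% of the genes were called, and that call held only without day 2 replicate 2 among the 4 left-out fits (0.0464 to 0.134). It was also lost under upper quartile scaling and under quantile normalization. Day 1 stood at 0.21 (adjusted p = 0.52) and turned to -0.21 under upper quartile scaling and -0.73 under quantile normalization. Co-culture stood at 0.73 (adjusted p = 0.116). The TGFBI to LTBP2 ratio within a library was 18 and 17.3 in co-culture, 28 and 31.6 on day 1, 45.5 and 35 on day 2, 37.6 and 40.2 on day 3, 46 in the homokaryon and 13.4 in unfused fibroblast replicate 2.

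CCN1, a secreted protein that binds integrins, was the only member called on all 3 days. Its level was 78.89 and 62.52 RPKM in co-culture, 237.6 and 209.8 on day 1, 277.4 and 232.2 on day 2, and 339.8 and 808 on day 3. All 6 heterokaryon libraries were above both co-cultures, days 1 and 2 overlapped, and both day 3 libraries were above them. CCN1 was higher than in co-culture by 1.65 (SE 0.38, adjusted p = 0.0338) on day 1, by 1.84 (SE 0.39, adjusted p = 0.0253) on day 2 and by 2.88 (SE 0.39, adjusted p = 0.01) on day 3, which are folds of 3.15, 3.58 and 7.37. Each day 1 and day 2 call was lost when any of the 4 libraries was left out, with adjusted p-values of 0.0718 to 0.204 and 0.109 to 0.159. Day 3 held without either day 3 library and was lost without either co-culture library (up to 0.112). Without day 3 replicate 2, the library at 808 RPKM, the day 3 difference was 2.26 (adjusted p = 0.0173). The CCN1 calls on days 1, 2 and 3 each held in 5 of 7 other settings (highest adjusted p = 0.169, 0.136 and 0.0868). The step from day 1 to day 3, 1.23, was not called (adjusted p = 0.151).

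Unfused fibroblast replicate 2 had 189.7 RPKM of CCN1, between co-culture and the heterokaryons, and the homokaryon had 90.89. Thus both co-cultures and the homokaryon were below the unfused library, by 2.4-fold and 3.03-fold for the co-cultures and 2.09-fold for the homokaryon. All 6 heterokaryon libraries were above it. They had 1.11 to 1.46 times its level on days 1 and 2, and 1.79 and 4.26 times on day 3.

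CCN2, a close relative of CCN1, was not called against co-culture on any day. It was at 42.77 and 41.31 RPKM in co-culture, 39.8 and 69.22 on day 1, 44.33 and 51.45 on day 2, and 55.16 and 227.7 on day 3. Day 1 overlapped co-culture, and the high day 3 mean came from replicate 2. The differences from co-culture were 0.31 (adjusted p = 0.781), 0.18 (adjusted p = 0.878) and 1.40 (SE 0.59, adjusted p = 0.264). Without day 3 replicate 1 the day 3 difference was 2.41 (adjusted p = 0.0263), and without replicate 2 it was 0.38. Under quantile normalization the day 2 difference was -0.0014. Unfused fibroblast replicate 2 had 104.2 RPKM and the homokaryon 41.72. The CCN1 to CCN2 ratio was 1.84 and 1.51 in co-culture, 5.97 and 3.03 on day 1, 6.26 and 4.51 on day 2, and 6.16 and 3.55 on day 3. It was 2.18 in the homokaryon and 1.82 in unfused fibroblast replicate 2, so the 6 heterokaryon libraries had higher ratios than the other 4.

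Across the set, 1 gene was above co-culture without overlap on day 1 and 5 below it, where 28.2% of all genes tested were above and 26% below in that way. On day 2 these counts were 4 and 4, against 39.5% and 21.5%, and on day 3 they were 4 and 3, against 26.3% and 20.7%. The median difference of the 8 genes from co-culture was -0.727 on day 1, -0.38 on day 2 and 0.373 on day 3, beside 0, 0.298 and 0.069 over all genes tested. The median over all genes on day 2 was 0.399 under upper quartile scaling and 0.0151 under quantile normalization. Relative to 0.298, the day 2 differences were 1.54 for CCN1, -1.24 for LTBP2, -1.56 for TGFB1, -1.30 for TGFBR2 and -0.08 for TGFBI. For TGFB2, TGFB3 and CCN2 they were 1.69, -1.64 and -0.12.

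In the homokaryon, set against the mean of the unfused fibroblasts that cover a gene, TGFBI was 2.56-fold higher, while TGFB1, CCN1 and CCN2 were 2.25-fold, 2.09-fold and 2.50-fold lower. These 4 of the 8 genes were past 2-fold on the log2(RPKM + 1) scale, where 17.9% of 2281 genes were past 2-fold higher and 17% lower. LTBP2, TGFBR2 and TGFB2 differed by -0.42, 0.26 and -0.24 on that scale. TGFB3 was under 1 RPKM in both kinds of sample. With 1 homokaryon library there is no replicate check, and for TGFB2, TGFB3, TGFBR2, CCN1 and CCN2 the fibroblast side is also 1 library.

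Other genes of the pathway were grouped in 7 lists. Of 14 genes of latency and activation, 9 were tested on day 1 and 2 of them fell against co-culture, where 11% of all genes were called: FURIN, the protease that cuts the ligand propeptide (-1.52, adjusted p = 0.0431), and THBS1, a matrix protein that can release latent ligand (-1.54, adjusted p = 0.0488). The median of the 9 was -0.729, beside 0 over all genes. THBS1 was at 243 and 260 RPKM in co-culture, 52.2 and 141 on day 1, 284 and 273 on day 2, and 426 and 478 on day 3, and its rise from day 1 to day 3 was called (adjusted p = 0.0461). Without day 1 replicate 1 its day 1 difference from co-culture was -0.83 and not called, and without day 1 replicate 2 it was -2.25. On day 2, 2 of 5 fell, where 10.6% of all genes were called, FURIN (-1.47, adjusted p = 0.0469) and the integrin subunit ITGB5 (-0.96, adjusted p = 0.0403), and on day 3 none of 6 was called. The protease MMP9 was at 0 RPKM in both co-cultures and at 1.87 and 2.84 on day 1 (adjusted p = 0.0818).

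Of the 4 receptors and co-receptors besides TGFBR2, 2 of 4 tested were called against co-culture on day 1, 1 of 3 on day 2 and 1 of 4 on day 3. Over all genes tested, 11%, 10.6% and 3.5% were called on these days. Among them ENG, the co-receptor endoglin, was lower than in co-culture on all 3 days. It was at 133 and 122 RPKM in co-culture, 29.6 and 37.7 on day 1, 33.7 and 30.9 on day 2, and 57 and 34.5 on day 3. The differences were -1.90 (adjusted p = 0.0069), -1.95 (adjusted p = 0.00583) and -1.50 (adjusted p = 0.0299). The day 1 call was lost without either co-culture library (up to 0.0728), the day 2 call without any of the 4 libraries (0.0523 to 0.0649), and the day 3 call held only without day 3 replicate 1 (up to 0.209). ENG was at 206 and 217 RPKM in the unfused fibroblasts, and below them on each day with adjusted p-values of 0.000845, 0.000894 and 0.00255, all kept when any library was left out. ACVRL1, a type I receptor, fell on day 1 by 2.14 (adjusted p = 0.0178) from 18.9 and 24 RPKM to 6.11 and 2.59, and was at 22.7 to 30.2 on days 2 and 3. In the unfused fibroblasts ACVRL1 was at 5.71 and 4.99 RPKM, between the 2 day 1 values. Day 1 gave -0.33 against them (adjusted p = 0.656), and co-culture gave 1.82 (adjusted p = 0.0752). Days 2 and 3 were higher than the unfused fibroblasts by 2.19 (adjusted p = 0.0101) and 1.96 (adjusted p = 0.0191). With a library left out, the day 2 call was lost in each of 4 fits (0.0502 to 0.115) and the day 3 call held in 1 of 4 (0.0417 to 0.183). TGFBR1, the type I partner of TGFBR2, was at 1.34 and 2.41 RPKM in co-culture, 2.21 and 3.1 on day 1 and 4.56 and 3.03 on day 3, with no call. TGFBR3 was between 0 and 4.47 RPKM in the 10 libraries. The medians of the receptor list against co-culture were -0.77, 0.372 and 0.018 on the 3 days, beside 0, 0.298 and 0.069 over all genes tested. Against the unfused fibroblasts, 2 genes of this list were tested, with 1, 2 and 2 called on days 1, 2 and 3. Of the 957 genes tested there, 15.9%, 12.9% and 7.21% were called.

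No gene of the SMAD pathway list was called by limma on any day, where 11%, 10.6% and 3.5% of all genes were. Only 7 of 13 were tested on day 1, and 1 on each of days 2 and 3. On day 1, 1 of the 7 (SKIL) had an unadjusted p under 0.05, as did 27.3% of all genes. On days 2 and 3, 0 did. The inhibitory SMAD7 was at 19.3 and 16.2 RPKM in co-culture and 29.5 and 31.5 on day 1 (0.75, adjusted p = 0.232). The SMAD repressor SKI was at 39.3 and 29.9 in co-culture and 23.6 to 33.7 in the heterokaryons. SKIL and SMAD6 were at or under 2.01 RPKM where covered. Of the ligand-binding matrix list, the proteoglycans BGN and FMOD were tested on each day and neither was called. BGN on day 2 was the 1 value at an unadjusted p under 0.05, where 25.6% of all genes were. BGN was at 180 and 220 RPKM in co-culture and 58.4 to 221 in the heterokaryons.

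Of 17 TGF beta target genes besides the members, 14 were tested on each day. The list was not split by the direction of the response to TGF beta. On day 1, 4 fell and none rose, where 11% of all genes were called, with a median of -0.59, beside 0 over all genes. ID2, an inhibitor of helix-loop-helix factors, was at 12.9 and 18.4 RPKM in co-culture and absent from both day 1 tables, which counts as 0 here (adjusted p = 0.0046). IGFBP3 and LOX also fell, by 1.83 (adjusted p = 0.0474) and 1.40 (adjusted p = 0.0484), and are named after their values were seen. On day 2, 2 of 14 fell, where 10.6% of all genes were called, ID2 by 2.81 (adjusted p = 0.0143) and the protease inhibitor TIMP1 by 1.70 (adjusted p = 0.0271), and the list median was -0.588. On day 3, 1 of 14 was called, where 3.5% of all genes were: ACTA2, smooth muscle actin, rose by 1.96 (adjusted p = 0.0194), from 66 and 73.9 RPKM in co-culture to 373 and 202, and the list median was 0.17. The ACTA2 call was lost without either co-culture library (up to 0.155), and ACTA2 was at 170 RPKM in unfused fibroblast replicate 2. TAGLN, like ACTA2 also on the smooth muscle marker list, was at 1963 and 929 RPKM on day 3 and 985 and 977 in co-culture. Of the other calls of the list genes named by rule, none held against co-culture without every library in turn, and ID2 on day 1 was lost only without co-culture replicate 2 (adjusted p = 0.0542).

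Of the other CCN family genes, CCN3 was tested, at 9.09 and 3.5 RPKM in co-culture and 0 to 2.7 in the heterokaryons, and was not called (adjusted p = 0.139 to 0.32). CCN3 lay below both co-cultures in every heterokaryon library, with a lowest value of 0 RPKM on each day, whereas CCN1 lay above them. Of all genes tested, 26%, 21.5% and 20.7% lay below co-culture without overlap on days 1, 2 and 3. The shares above it were 28.2%, 39.5% and 26.3%. Of 17 genes of the YAP and TEAD list, 4 were tested on day 1 and 2 fell, where 11% of all genes were called: the factor TEAD2 by 1.96 (adjusted p = 0.0124) and F3, which encodes tissue factor, by 2.89 (adjusted p = 0.0184). F3 was at 338 and 283 RPKM in co-culture and 25.5 and 65.3 on day 1. None of 3 on day 2 and 4 on day 3 was called. TEAD3 was at 50.9 and 53.6 RPKM in co-culture and 47.6 to 98.2 in the heterokaryons, and LATS1 was at or under 2.15 RPKM where covered.

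**Figure D4:**
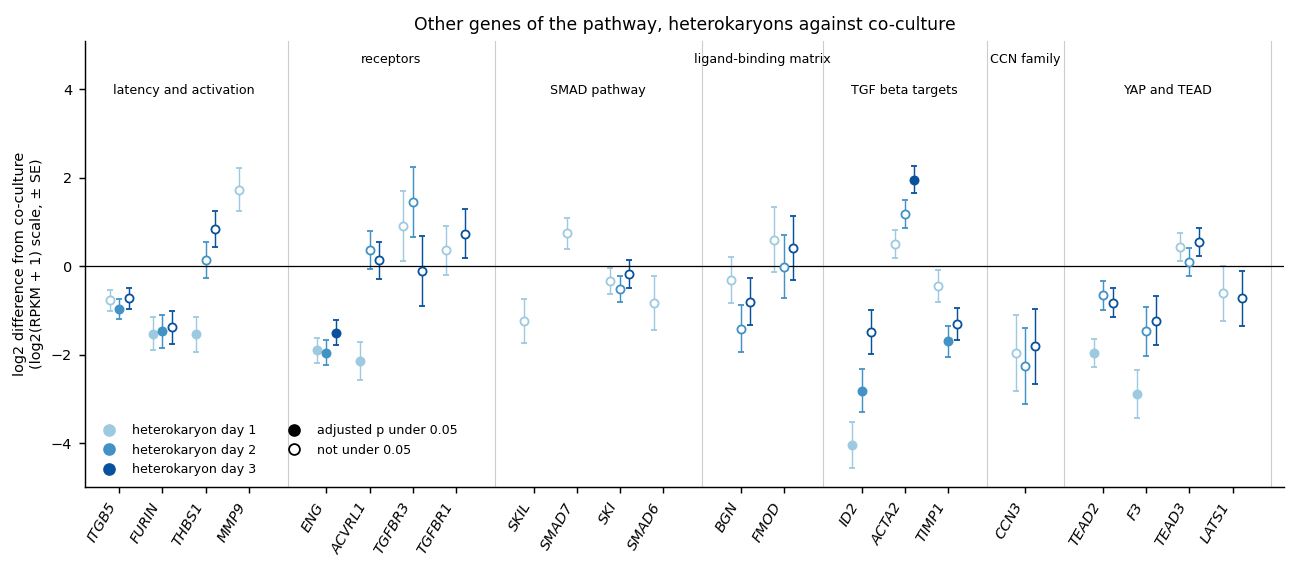
Named genes of the 7 pathway lists, as the difference of each heterokaryon day from co-culture (log2(RPKM + 1) scale, limma estimate with its standard error), filled where the adjusted p is under 0.05; a day is missing where a gene was not tested. ENG is lower on all 3 days, ID2 on days 1 and 2, and ACTA2 is the only filled point above 0.

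The genes whose levels were most like those of each member were sought over the 8 co-culture and heterokaryon libraries, among 1057 genes with a mean of at least 10 RPKM. The likeness is Pearson's r of log2(RPKM + 1), given as a description, since the points share libraries, depth and groups. TGFBR2 was most like GJA1 (r = 0.990), which encodes a gap junction protein, and SOX4 (r = 0.977). GJA1 was at 149 and 159 RPKM in co-culture, 9.96 and 20.8 on day 1, 63.6 and 83.4 on day 2, and 84.2 and 39.4 on day 3. LTBP2 was most like ECE1 (0.985) and the collagen gene COL5A1 (0.984), TGFBI like the chemokine gene CXCL1 (0.947) and the myosin gene MYH9 (0.936), and TGFB1 like LOC728392 (0.930). CCN1 was most like the ferritin gene FTL (0.944) and the Notch ligand gene JAG1 (0.927), and CCN2 like ECH1 (0.895) and BCL6 (0.861). TGFB2 was most like AFDN (0.931) and KDM6B (0.930), and TGFB3 like PFKP (0.873) and HGF (0.872). Among the members themselves, the highest r were 0.843 for TGFB2 with TGFBI, 0.820 for TGFBR2 with LTBP2 and 0.732 for CCN1 with CCN2. The lowest was -0.857, for TGFB3 with CCN1.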

How the data were processed

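Per the labels, poly(A)-selected RNA was sequenced. Builds hg19 and mm10 are named, per the submitters' processing notes; aligner and counting are not given in the sources used here. Each deposited table lists transcript accessions with 1 value, without 0s and with no named unit. The values the authors deposited are taken as RPKM, from their form and steps. Of the 12 tables, 11 hold 10000 distinct values, so each of these is taken to end at a point in accession order; a missing transcript counted as 0 before that point and as not covered after it. Gene names came from RefSeq tables, and 272 genes next to unnamed accessions were set aside.

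Transcripts were summed per gene (Python 3.11.15, pandas 2.3.3). limma 3.58.1 in R 4.3.3 (empirical Bayes with trend) was fitted to log2(RPKM + 1), for genes at 1 RPKM or more in at least 2 samples and covered in all libraries of both groups, with the 10 libraries of the 5 replicated groups sharing the spread. It was also run on simulated data, with changes set only in genes above a low level. That run is not used to weigh the results. Every member was tested in each comparison that covers it. Of each pathway list, up to 4 genes with the smallest adjusted p against co-culture are named, and for each member the 2 most alike genes. Members and lists were chosen with earlier results of these data known. The read steps and the fit on unfused fibroblast replicate 2 alone were brought in after seeing the data. No other sample columns were present. Some items that these rules name are not reported here.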

Additional observations from a re-analysis of the deposited data

Results flagged for a closer look

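TGFBI on day 3 against day 1 was singled out because its difference from co-culture changed between these time points by a test of the difference itself: 1.46 on the log2(RPKM + 1) scale (limma, adjusted p = 0.0359), higher in both day 3 libraries than in both day 1 libraries. The adjusted p ranged from 0.013 to 0.299 over the other settings and left-out libraries.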

How the results depend on the processing

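The limits are the 2 libraries per group, the low read numbers of TGFB2 and TGFB3, and the single unfused fibroblast value of 5 genes. No result changed direction while called in either setting. The count of members called on day 1 against co-culture, 3, became 4 under quantile normalization, 1 without the filter on low values, 2 with only the 2 groups in the fit or with genes covered in part, and 0 to 2 with a library left out. On day 2, 3 became 1 under upper quartile scaling, quantile normalization, no filter or the replicate block, 2 with a pseudocount of 0.1, 0 with genes covered in part and 0 with any library left out. On day 3, 2 became 3 under upper quartile scaling, 0 without the filter or with only the 2 groups in the fit, 1 with the replicate block or genes covered in part, and 0 to 3 with a library left out. Between days 3 and 1, 1 became 3 under upper quartile scaling, 0 without the filter, with only the 2 groups or with the replicate block, and 0 to 2 with a library left out. Against unfused fibroblasts, co-culture went from 0 to 2 with only the 2 groups. Day 1 went from 1 to 0 with the replicate block, with genes covered in part and with any library left out. Day 2 went from 1 to 0 under both scalings, to 2 with only the 2 groups and to 0 or 1 with a library left out. Day 3 against unfused fibroblasts stayed at 1 in every setting run. In the homokaryon, 4 genes past 2-fold became 2 without unfused fibroblast replicate 2, which leaves 3 genes covered. Where a left-out library leaves 1 in its group, that library is assumed to vary like the others.

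Replicate numbers only name samples here: deviations of same-numbered libraries correlated at -0.208 to 0.14 over 1057 genes. With the replicate block 312 genes were called on day 1 against co-culture in place of 392, 197 on day 2 in place of 257 and 68 on day 3 in place of 105. Over all settings these counts ran from 42 to 392, 28 to 512 and 5 to 166, and from 0 to 56 between days 3 and 1 (38 in the fit reported), 0 to 21 between days 2 and 1 (8) and 0 to 18 between days 3 and 2 (0). Against unfused fibroblasts they ran from 1 to 101 for co-culture (8) and 20 to 235, 30 to 286 and 15 to 114 for days 1 to 3 (152, 123 and 69). Higher and lower calls against co-culture were 164 and 93 on day 2, 180 and 68 under upper quartile scaling and 85 and 106 under quantile normalization. On day 3 they were 69 and 36, 94 and 22, and 66 and 48.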
